A study of Nothobranchius furzeri with 20 samples.

Results

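The 150 genes described here came closest, of the genes measured in the brain of the turquoise killifish (Nothobranchius furzeri), to being lower in every library of 27 weeks than in any library of 9 weeks. They were chosen by their measured levels among the 18153 genes, of 26739 in the deposited count table, with a mean of at least 1 CPM (counts per 1000000 counts of a library). For each gene, the highest value of 9 libraries of 27 weeks was subtracted from the lowest value of the 10 libraries of 9 weeks, on the scale log2(CPM + 0.5), and the 150 genes with the highest score were taken. One 27-week library, replicate 8, was not used in the score. A score above 0 means that the ages do not overlap, and only 40 of the 150 genes reached it. The other 110 overlapped, so the members are genes at the low edge of the 27-week fish rather than genes lower in each of them.

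The groups were 10 libraries of male fish of 27 weeks after swim-tunnel exercise, 5 of male fish of 9 weeks after swim-tunnel exercise, and 5 of male fish of 9 weeks whose perturbation label is none. All were brain RNA of the strain MZM-04/10p, and unexercised fish of 27 weeks were not analysed here, so age can be compared at a matched label only among exercised fish. No label says that each library is a separate fish, so a p-value here covers no more than the spread of these libraries, which may be technical. Library totals ran from 15048627 to 34843199 counts. Replicate 8 of the 27-week group stood apart, with a TMM scaling factor (edgeR's correction for RNA composition) of 0.736, against 0.984 to 1.05 in the other 19 libraries.

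The turquoise killifish lives in seasonal ponds, matures quickly and has a short life, and is used to study ageing. In its brain, as in that of other vertebrates, ageing is known to come with fewer dividing progenitor cells and with reactive glia. In a swim tunnel a fish swims against a current. The files give genes by identifier and do not pair identifiers with names, and 0 identifiers matched the RefSeq table of assembly NfurGRZ-RIMD1. No role is therefore given to any gene, and the tissue label was not checked against marker genes. In bulk RNA, fewer cells of a type and less RNA per cell cannot be told apart, which holds for every level below.

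Few genes parted the ages, and the members thin out quickly below the first ones. The gene ranked first had a score of 0.35, rank 2 had 0.22, rank 3 had 0.12 and rank 10 had 0.065. The last member had a score of -0.0598 and the first gene left out had -0.0599, so nothing sets the members apart from the genes just below them. Of all 18153 genes, 0.22% were lower in all 9 libraries of 27 weeks than in all 10 of 9 weeks, and these are the same 40. The mirror pattern, higher in all 9 than in all 10, was met by 152 genes, or 0.837%. These counts rest on the scaling, here raw totals. With TMM-scaled CPM, 77 of the 150 members and 0.446% of all genes (81 genes) were lower with no overlap. The mirror pattern was not counted with TMM scaling. Over all genes, the mean log2 difference of these 9 libraries from the 9-week mean was 0.036 on raw totals and 5.2e-05 with TMM scaling. Replicate 6 of the 27-week group weighed most on the choice, since 97 of the 150 genes stayed members and 87 of all genes did not overlap without it.

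**Figure D1:**
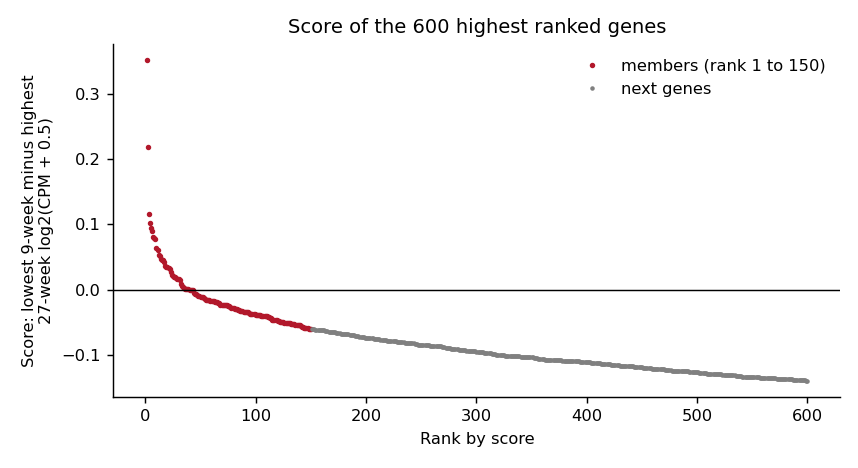
Score (lowest 9-week minus highest 27-week value, log2(CPM + 0.5), vertical axis) of the 600 highest ranked genes against their rank. Red points are the 150 members and grey points the genes after them; 40 members lie above the line at 0, and the curve runs on without a step at rank 150.

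Most members came close to a full separation, which is what the score selects for. In 50 members 8 of the 9 libraries of 27 weeks lay below the lowest of 9 weeks, in 39 it was 7 of 9, in 14 it was 6, in 4 it was 5 and in 3 it was 4. These counts describe the choice, and the same counts were not made over all genes. Few of the gaps were wide beside counting error. The counting error was taken from the counts of the libraries on the edges, without the 0.5 added to CPM in the score. For 3 of the 40 genes with no overlap the gap exceeded 1.96 times this error, and for the other 37 it did not. The choice of the highest and lowest library makes this a description and not a test.

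The difference between the ages was modest in nearly all members. Their mean CPM over the 9 libraries of 27 weeks was at the median 83.9% of the mean over the 10 libraries of 9 weeks, with a range of 48.5% to 96.1%. Only 2 members were under 50% and 5 under 66.7%, while 104 kept 80% or more. On the log2 scale the difference had a median of -0.25, against 0.02 over all 18153 genes. Outside the members, 1245 genes lay further down than that median. The members are therefore not the genes with the largest differences. They varied little within an age: the SD of log2(CPM + 0.5) had a median of 0.11 in the 9 libraries of 27 weeks and 0.085 in the 10 of 9 weeks, against 0.19 and 0.16 over all genes. The score favours such even genes by its construction.

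**Figure D2:**
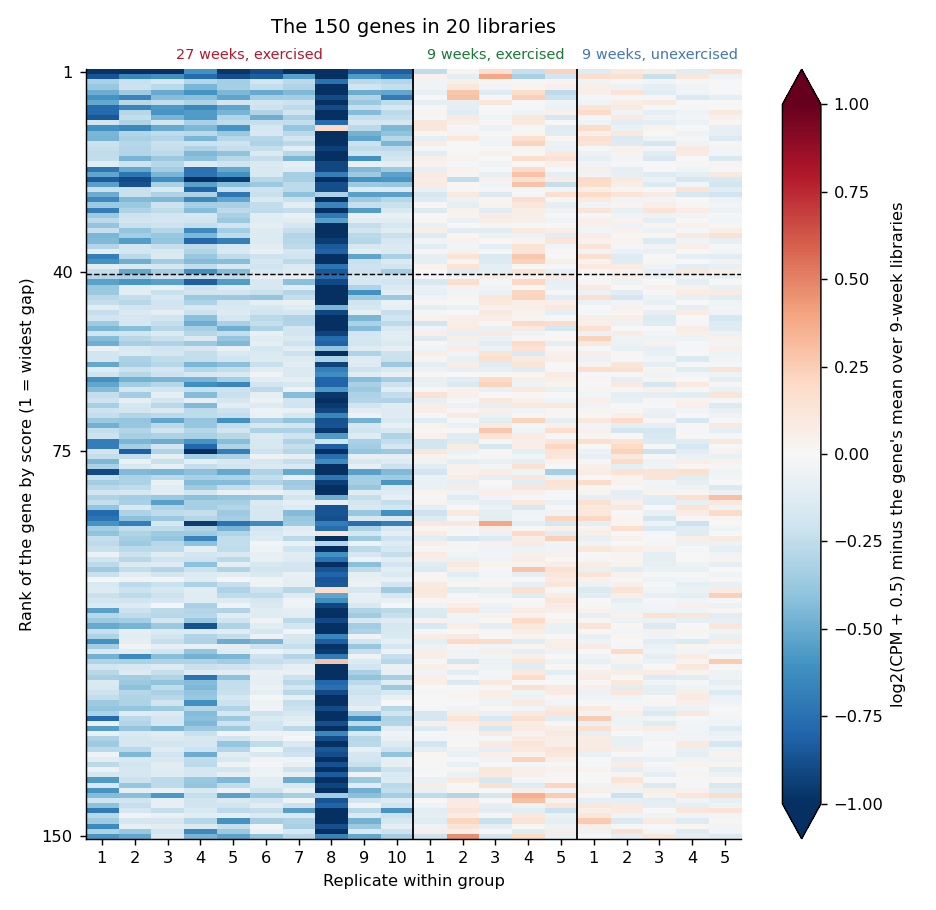
Level of each of the 150 members (rows, by rank) in each of the 20 libraries (columns), as log2(CPM + 0.5) minus the gene's mean over the 10 libraries of 9 weeks. Blue is lower and red higher; the dashed line parts the 40 members with no overlap from the other 110, and replicate 8 of the 27-week group is the darkest column.

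The 2 members with the widest gap were also the only ones at under 50% of their 9-week level. Nfu_g_1_013299 lay between 4.28 and 7.66 CPM in the 9 libraries of 27 weeks, with a median of 5.84 CPM, and at 4.38 CPM in replicate 8. It had 9.91, 12.2, 13.4, 10.1 and 14.1 CPM in exercised 9-week fish, and 10.9, 12.7, 12.4, 10.9 and 13.2 CPM in unexercised 9-week fish. Every 27-week library was thus below every 9-week library, with and without exercise. Its log2 fold change was -1.05 (SE 0.13) against exercised and -1.08 (SE 0.12) against unexercised 9-week fish. These values describe a gene chosen for them, so no test is given. Counts behind them ran from 87 to 177 in the 9 libraries of 27 weeks, 183 to 424 in exercised and 242 to 372 in unexercised 9-week libraries. The length implied by the deposited values was 6457 bp.

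Nfu_g_1_021340 was far lower in counts and less certain. It lay between 0.723 and 1.06 CPM in the 9 libraries of 27 weeks, with a median of 0.889 CPM, and at 0.595 CPM in replicate 8. It had 1.84, 1.64, 2.46, 1.31 and 1.48 CPM in exercised 9-week fish and 2.07, 2.02, 1.44, 1.95 and 1.69 CPM in unexercised 9-week fish. The ages did not overlap, but the edge of the gap rested on 29 counts in a 27-week library and 27 counts in a 9-week library. Its gap was 0.22 on the log2(CPM + 0.5) scale, and its counting error was 0.39 on log2 counts without the added 0.5. These scales differ at so low a level, so the values can be compared only roughly. Its log2 fold change was -0.99 (SE 0.15) against exercised and -1.08 (SE 0.13) against unexercised 9-week fish.

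After these, the differences were small, as in the gene of rank 3. That gene had 70.4 ± 2.97 CPM (SD, n = 9) at 27 weeks and 84.3 ± 1.799 CPM (n = 10) at 9 weeks, or 83.5% of the 9-week level. Its highest 27-week library, at 75.3 CPM, lay below its lowest 9-week library, at 81.7 CPM. Its difference between the ages was small and its spread smaller still. At the other end, the gene ranked last had 1.06 ± 0.158 CPM (n = 9) at 27 weeks and 1.59 ± 0.319 CPM (n = 10) at 9 weeks, and its ages overlapped.

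**Figure D3:**
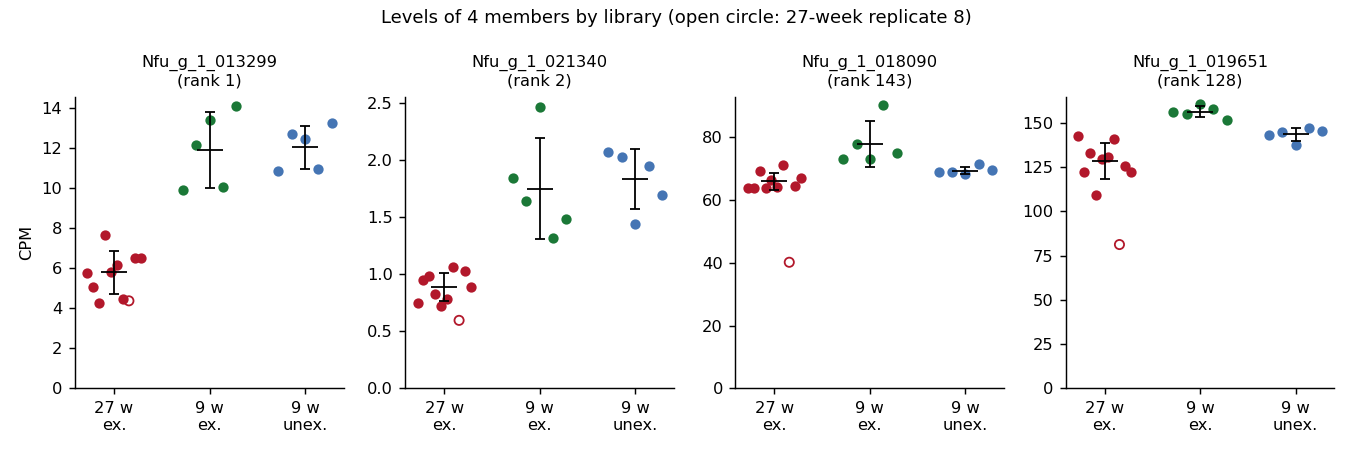
CPM by library of 4 members named by a fixed rule, with the mean and SD of each group in black (replicate 8 of the 27-week group, the open circle, left out of them). In Nfu_g_1_013299 and Nfu_g_1_021340 all 27-week points lie below all 9-week points. In Nfu_g_1_018090 and Nfu_g_1_019651 the 27-week points overlap the unexercised ones and not the exercised ones, as the choice of these genes makes likely.

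The 27-week libraries differed in how far the members were down. Averaged over the 150 genes, the difference from the 9-week mean was -0.36, -0.30, -0.26, -0.37, -0.30, -0.18, -0.21, -0.27 and -0.22 in replicates 1 to 7, 9 and 10, on the log2(CPM + 0.5) scale. It lay between -0.029 and 0.054 in exercised and between -0.041 and 0.033 in unexercised 9-week libraries. Replicates 1 and 4 were lowest and replicate 6 was nearest to the 9-week libraries. TMM scaling kept replicate 6 nearest, at -0.22, and replicate 4 lowest of the 9, at -0.43. The mean over these 9 libraries was -0.28 ± 0.065 (SD) on raw totals and -0.31 ± 0.075 with TMM scaling.

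Replicate 6 was also the library that most often closed the gap. It was the highest of the 9 libraries of 27 weeks for 50 of the 150 members, followed by replicates 7 (25 members), 10 (23) and 9 (16). Replicates 1, 2, 3, 4 and 5 held that place for 6, 9, 11, 4 and 6 members. In replicate 6, 96 of the 150 members lay below the lowest 9-week library, with replicates 7 and 10 next, against 130 to 145 in the other 6. All of these libraries entered the score, so these counts describe the choice. The share of all genes below the lowest 9-week library was not counted in them. Among the 9-week libraries, unexercised replicate 3 was the lowest for 29 members and exercised replicate 1 for 28, and unexercised replicate 1 for only 4.

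In all, the 150 genes took 1.39% ± 0.0521 of the counts (SD, n = 9) at 27 weeks without replicate 8. At 9 weeks their share was 1.64% ± 0.0329 (n = 5) with exercise and 1.62% ± 0.0270 (n = 5) without it. The lowest 9-week share was 1.59% and the highest 27-week share 1.48%, so these shares did not overlap. The direction of this difference is fixed by the choice of the genes.

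**Figure D4:**
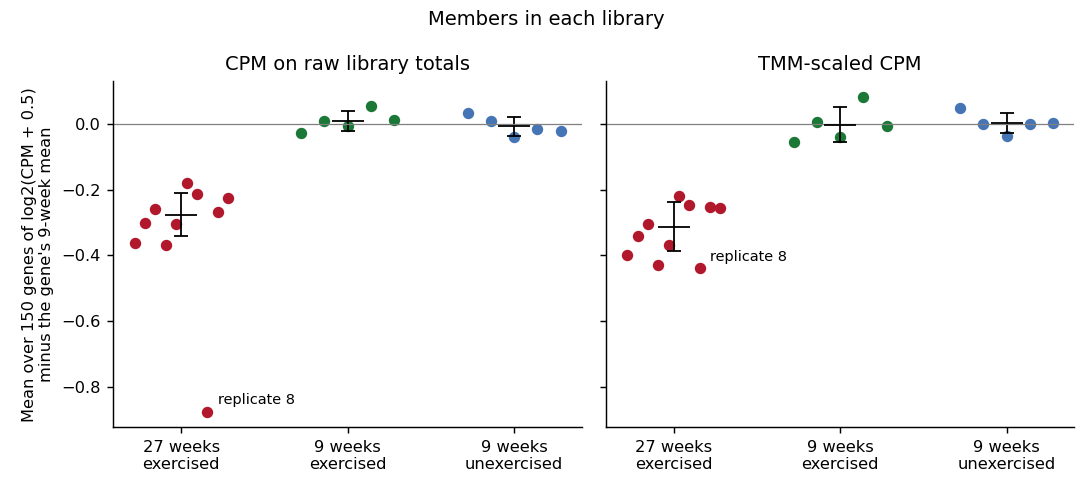
Mean over the 150 members of log2(CPM + 0.5) minus the gene's 9-week mean, 1 point per library, on raw library totals (left) and with TMM scaling (right). Black marks are the mean and SD of a group without 27-week replicate 8, which is at -0.88 on raw totals and at -0.44 with TMM scaling, where the lowest of the other 27-week libraries is at -0.43.

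Replicate 8 of the 27-week group is the 1 library that the score did not use, and there too most members were low. On raw totals 145 of the 150 lay below all 10 libraries of 9 weeks, but so did 62.3% of all 18153 genes in this library. With TMM scaling 90.7% of the members lay below all 9-week libraries, against 31.5% of all genes. The 10 libraries of 9 weeks did enter the score, which favours genes with a high lowest 9-week value. That choice makes any further library more likely to lie below them, so these shares are descriptions. The median difference from the 9-week mean was -0.46 over the members and -0.018 over all genes on the TMM scale. This is 1 library, so no test was made, and it is the library that stands apart from the rest. Its slope of level on log2 gene length was -0.087, against -0.021 to 0.0074 in the other 27-week libraries. The members were longer than all genes at the median, 4910 against 2765 bp. With the linear length trend removed, on raw totals, 145 members and 62.8% of all genes lay below all 9-week libraries. Members also had smaller SDs at 9 weeks than all genes, so all genes are not a like comparison. The part of these and its other differences in this result was not tested.

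The members were not uniform in replicate 8. With TMM scaling 69 lay within the range of the other 9 libraries of 27 weeks, 68 below it and 13 above it. Above the 9-week mean were 11 members, and 7 were above the highest 9-week library. The members highest there exceeded their 9-week mean by 0.73, 0.63 and 0.62 on the log2 scale and held ranks 116, 12 and 102.

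Exercise at 9 weeks was the comparison least tied to the choice, since the score pools both 9-week groups. It is not free of it: a gene that differs between these groups has a lower minimum, and the score works against it. None of the 150 members (0 of 150) passed the threshold in edgeR's quasi-likelihood test, a Benjamini-Hochberg adjusted p below 0.05 over the 19123 genes tested, where 0.0994% of all genes passed (19 genes, 0.0784% as lower in exercised fish). At an unadjusted p below 0.05 there were 10 members, 3 higher and 7 lower in exercised fish, or 6.67%, against 12.1% of all genes. DESeq2 also called 0 members, where it called 353 of 22867 genes (1.54%), and 11 members had an unadjusted p below 0.05, against 10.6% of all genes. All 150 members passed the filter on low counts.

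The changes with exercise were small in size. The log2 fold changes of the members ran from -0.20 to 0.15, with a median of -0.0027, against -0.0022 over all genes tested. Of the 150, 69 were above 0 and 81 below. The median size of the change, without its sign, was 0.044 in the members and 0.094 over all genes. The score favours genes that vary little at 9 weeks, where the members' median SD was 0.085, against 0.16 over all genes. The choice thus makes a smaller size likely. An adjusted p above the threshold does not show that exercise left these genes as they were.

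Of the members higher in exercised fish at an unadjusted p below 0.05, Nfu_g_1_018090 had the largest difference. It had 73.1, 77.6, 73.0, 90.3 and 74.96 CPM in exercised 9-week fish and 68.8, 68.7, 68.2, 71.3 and 69.3 CPM in unexercised 9-week fish. All 5 exercised libraries were above all 5 unexercised ones, replicate 4 by far the most (log2 fold change 0.15, SE 0.065, edgeR adjusted p = 0.403). Without exercised replicate 4 the fold change was 0.085. At 27 weeks it lay between 63.7 and 71.0 CPM in 9 libraries, with a median of 64.2 CPM, and at 40.1 CPM in replicate 8. The 27-week range thus overlapped the unexercised fish and not the exercised ones.

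Nfu_g_1_019651 had the smallest p among these members. It had 156, 155, 161, 158 and 152 CPM in exercised 9-week fish and 143.2, 145, 138, 147 and 145.5 CPM in unexercised 9-week fish, again with no overlap (log2 fold change 0.10, SE 0.036, edgeR adjusted p = 0.311). At 27 weeks it lay between 109 and 142.6 CPM in 9 libraries, with a median of 129.5 CPM, and at 81.3 CPM in replicate 8. Its log2 fold change at 27 weeks was -0.32 (SE 0.060) against exercised and -0.21 (SE 0.061) against unexercised fish. Neither gene passed for exercise, so the order of the 3 groups is a description. Both were picked as members and as higher with exercise, and these choices make this order likely.

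**Figure D5:**
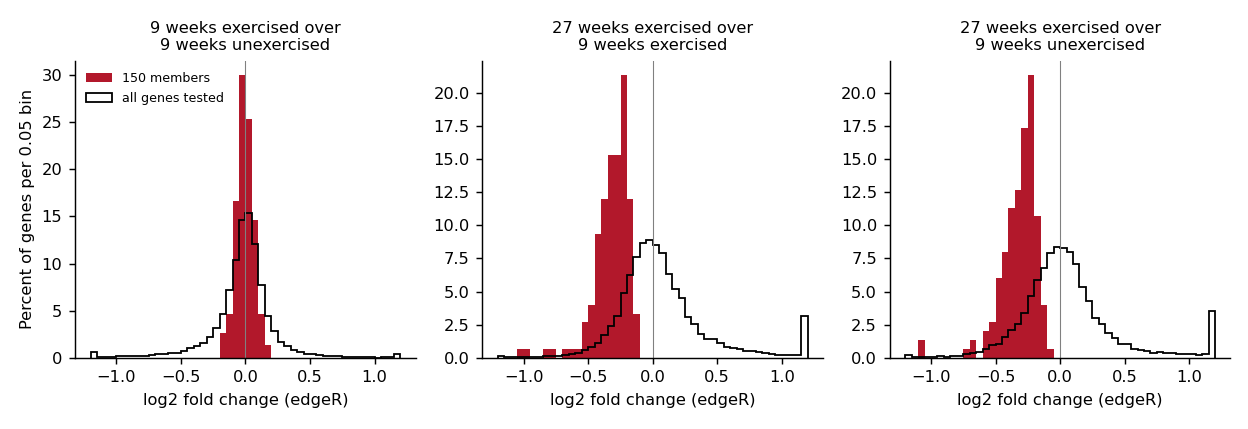
Distribution of edgeR log2 fold changes of the 150 members (red) and of all genes tested (black outline), as the percent of genes per bin of 0.05, with values beyond the axis gathered in the end bins. The members centre near 0 for exercise (-0.20 to 0.15), and all 150 lie below 0 in both comparisons of 27-week fish, as the choice of the genes makes likely.

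The comparisons of 27-week fish with each 9-week group were used to choose the members, and their counts are descriptions. Against exercised 9-week fish all 150 log2 fold changes were below 0, from -1.05 to -0.10, with a median of -0.30, against 0.013 over all genes tested. The edgeR threshold was passed by 72 members, where 0.998% of all 19531 genes tested passed as lower (2.16% in either direction). Against unexercised 9-week fish, where age and exercise both differ, the values ran from -1.08 to -0.093 with a median of -0.29, against 0.012 over all genes. There 94 members passed, where 1.79% of 19591 genes passed as lower (4.35% in either direction). In 59 members both comparisons passed and in 43 neither did.

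These counts depended on single libraries, and the share of all genes that passed as lower moved with them. Against exercised fish the count of 72 was 23, 8, 26, 3 and 26 without exercised 9-week replicates 1 to 5, and 38 and 40 without 27-week replicates 2 and 5. The share of all genes was 0.264%, 0.102%, 0.356%, 0.0356% and 0.351% in the first 5 of these fits and 0.448% and 0.512% in the other 2. Without replicate 8 the count was 120, where 2.13% of all genes passed. Against unexercised fish the count of 94 was 23, 36, 49, 29 and 27 without unexercised replicates 1 to 5, and 50 without 27-week replicate 5. The share of all genes was 0.36%, 0.538%, 0.721%, 0.442% and 0.431% in the first 5 and 0.737% in the last. Without replicate 8 the count was 130, where 3.3% of all genes passed. With raw library totals in place of TMM factors 6 and 7 members passed, where 0.0614% and 0.163% of all genes did. All 150 fold changes stayed below 0 in each of these fits, as the choice of the genes makes likely.

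The fitted values against the 2 groups of 9-week fish lay close together. The log2 fold changes against the exercised and the unexercised group differed by 0.044 at the median and by 0.19 at most, in size. Both share the 27-week libraries, so these are not independent values. The score also works against genes that differ between the 9-week groups, so the choice itself makes close values likely. The 40 genes with no overlap had medians of -0.37 against exercised and -0.38 against unexercised fish, and the other 110 had -0.27 against both.

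The members were well expressed and mostly long, which the score did not ask for beyond its minimum of 1 CPM. Their mean level over the 20 libraries had a median of 73.8 CPM (range 1.28 to 665 CPM), against 20.5 CPM over all 18153 genes. Only 10 of the 150 (6.67%) were under 10 CPM, against 33.0% of all genes, and 48 were at 100 CPM or more. Per kilobase of length the median level was 15.2 CPM per kb in the members and 8.38 CPM per kb over all genes. Counting error is smaller at higher levels, and a score on the highest and lowest library depends on the spread; the part of this in the choice was not tested.

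The differences were smaller in the members with higher levels. The 10 members under 10 CPM kept a median of 67.9% of their 9-week CPM at 27 weeks, the 92 between 10 and 100 CPM kept 82.9%, and the 48 at 100 CPM or more kept 87.2%. By its construction, the score asks for a larger difference from a gene with a wider spread. Of the 10 lowest members 6 had no overlap, of the next 92 it was 26, and of the 48 highest it was 8. These 40 are all the genes with no overlap among the 18153, or 0.22%. Genes under 10 CPM made up 33.0% of all genes but only 6.67% of the members. The counts by level are thus shares of chosen genes and do not show that genes of low level part the ages more often.

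Gene length, implied by the deposited counts and RPKM, had a median of 4910 bp in the members and 2765 bp over all genes. Of the members 104 (69.3%) were longer than that median of all genes. At 6000 bp or more there were 57 members (38.0%), against 15.8% of all genes, and below 1500 bp there were 24 (16.0%), against 27.4%. Genes of the members' level were themselves longer, with a median of 3924 bp over the 5281 genes between 31.9 and 128.6 CPM, the middle range of the members.

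The median log2 difference between 27 weeks without replicate 8 and 9 weeks was 0.037 for all genes below 1500 bp, 0.031 for those between 1500 and 6000 bp and -0.034 for those of 6000 bp or more. The slope of level on log2 length of single libraries overlapped between the ages, at -0.021 to 0.0074 in the 9 libraries of 27 weeks, 0.0023 to 0.028 in exercised and -0.0097 to 0.018 in unexercised 9-week libraries. A difference in length trend between the ages was not tested. In the members the same medians were -0.27, -0.27 and -0.23, so the median difference was smallest in the longest members. With the linear length trend of each library removed before scoring, 123 of the 150 genes stayed members. Of these, 38 had no overlap, where 41 of all 18153 genes had none.

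Members varied together within the 27-week group. The mean Pearson correlation over all pairs of members, of residuals about the group mean, was 0.24 over the 9 libraries of 27 weeks and 0.096 over the 10 of 9 weeks. Over all genes with at least 1 CPM it was 0.0069 and 0.012. All pairs share the same libraries, totals and scaling, so these are descriptions. The members were chosen for 1 direction of difference and had higher levels, so all genes are not a like comparison. The 27-week value goes with the order of the libraries above. Replicates 1 and 4 were low there and replicate 6 high over the members as a whole. With TMM scaling the members' mean lay between -0.43 and -0.31 in replicates 1, 2, 3, 4 and 5. It lay between -0.26 and -0.22 in replicates 6, 7, 9 and 10. On raw totals these sets overlapped, with replicate 3 at -0.26 and replicate 9 at -0.27. The residuals were taken about 1 mean for all 9 libraries, so a difference between the sets enters the correlation. Its part in the 0.24 was not tested.

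Among the 150 identifiers 3 pairs had consecutive numbers, at ranks 5 and 6, 21 and 148, and 43 and 77. The files give no coordinates, so whether these genes lie side by side or share reads was not analysed here. The genes ranked 5 and 6 kept 70.3% and 69.1% of their 9-week CPM at 27 weeks. Their implied lengths were 879 and 2834 bp.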

How the data were processed

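The authors deposited raw counts per gene and RPKM per gene for the same 20 brain libraries. The tools featureCounts 1.4.6-p4, STAR 2.4.1d and bcl2fastq 1.8.4 are listed, without their roles, in the submitters' processing notes. No genome build, annotation or strand setting is given in the sources used here, so reads of near-identical, overlapping or antisense genes cannot be told apart. The counts were used as deposited, and no libraries were merged, since chi-square per degree of freedom was at least 7.86 between replicates. The deposited RPKM fit the counts only with the library totals taken in turn down the table: over 10327 genes the implied length then varied by a log2 SD of 5.64e-05, against 0.42 with each library's own total. RPKM therefore gave gene lengths and no levels.

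CPM used raw totals. Each comparison used edgeR 4.0.16 (R 4.3.3) on its groups alone, with filterByExpr, TMM factors, glmQLFit and glmQLFTest (two-sided), all genes adjusted together. DESeq2 1.42.0 was an alternative. On simulated counts for 9-week exercise (19123 genes), edgeR recovered 8% of 1.25-fold, 54% of 1.5-fold and 82% of 2-fold changes. Each share is of 50 genes, and there were 5 false calls in all. For 27-week against exercised 9-week fish (19531 genes) these shares were 2%, 2% and 58%, with 6 false calls. Against unexercised 9-week fish (19591 genes) they were 2%, 6% and 64%, with 3 false calls. The changed genes were drawn at random from those of at least 1 CPM, with the spread usual at their level. That spread was estimated with replicate 8 included in both comparisons of 27-week fish, while no simulated library was made to stand apart. The members varied less than all genes, so these shares are not rates for the members.

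The members and the rule for named genes were chosen with earlier results of these data known. By that rule, genes without symbols are named only for the highest 2 scores and, among members higher with exercise at an unadjusted p below 0.05, for the largest difference and the smallest p. Marker lists were not used, since no identifier matched a symbol.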

Additional observations from a re-analysis of the deposited data

Results flagged for a closer look

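For 21 groups of values on the members, the distance of the extreme library to the next one was divided by the whole range. A library stood apart in 4 of them. The limit used is passed by about 1 in 20 groups of values that were not chosen. That rate does not hold here, since replicate 8 was known to stand apart and the genes were chosen on these values. Of these, 3 concerned 27-week replicate 8, in measures that are not independent: the members' mean difference of -0.88 on raw totals, their share of counts of 0.888% and the 40.1 CPM of Nfu_g_1_018090. With TMM scaling the members' mean in that library did not stand apart. The last was exercised 9-week replicate 4, at 90.3 CPM of Nfu_g_1_018090, the highest of its group. Without that library the log2 fold change of this gene with exercise was the lowest of the refits that each left out 1 library, at 0.085 of a range up to 0.17.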

How the results depend on the processing

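No paired analysis was possible because the numbers in the library titles tie no library to one of another group. The alternatives were planned except the fits that join DESeq2, or TMM-scaled CPM, with a change in the use of 27-week replicate 8, which were chosen after seeing the data. The cause of each shift below was not tested.

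Against exercised 9-week fish, 48.0% of the members passed. DESeq2 called 83.3%, raw library totals 4.0%, all 20 libraries in 1 fit 82.0% and DESeq2 without replicate 8 93.3%, where 3.21%, 0.0614%, 3.11% and 3.75% of all genes passed as lower. Leaving out 1 library gave 2.0% to 80% of the members and 0.0356% to 2.13% of all genes. Against unexercised fish, 62.7% passed, with 4.67% on raw totals, 96.7% in DESeq2 without replicate 8 and 15.3% to 86.7% without 1 library, where 0.163%, 4.98% and 0.36% to 3.3% of all genes passed as lower. For exercise the count was 0 under each alternative, where 0% to 0.11% of all genes passed in the edgeR fits and 1.54% in DESeq2. With so few genes passing, a count of 0 says little about the members. The members' median log2 fold change lay between -0.016 and 0.012 without 1 library. Of the 150 genes, 40 stayed members with no filter on low values, where genes with no counts in most libraries score 0. With TMM-scaled CPM 114 stayed, or 111 with replicate 8 kept in as well, and 97 to 146 stayed without 1 library. The 40 members with no overlap became 77 with TMM-scaled CPM, 71 with replicate 8 kept in as well, and 40 to 59 without 1 library, where 81, 75 and 41 to 87 of all genes did not overlap. Leaving out 1 library can only keep or raise a score, so the lower end of 40 was fixed in advance. Replicate 8 lay below all 9-week libraries for 145 or 146 members without 1 library of 9 weeks, a count that likewise could not fall.

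The log2 fold change of Nfu_g_1_013299 with exercise, which did not pass, ran from -0.10 to 0.027 without 1 library and was above 0 without exercised replicate 1 (0.027), exercised replicate 4 (0.018) or unexercised replicate 5 (0.0085). Members with few counts are limited by depth: 10 had under 100 counts in some library.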
